A study of Homo sapiens with 24 samples.

Results

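The genes described are 10 listed by name whose change with TGF-beta was more positive in SFPQ-depleted than in control cells of every one of 6 liver cancer lines: TMEM160, PRR24, ANKRD9, C4orf48, LOC100652739, ZNF579, CEBPB, NR2F6, PLSCR3 and MARCKSL1. They are 10 of 13492 genes tested and of 21656 gene rows. They were selected on the measured difference between the TGF-beta changes of both kinds of cells, so that difference is given here as a description, with no test. In HepG2, Huh7, Huh1, Hep3b, SK-HEP1 and HLE cells, polyadenylated RNA was sequenced in 4 groups of 6 libraries, 1 library per line and group: cells given a small interfering RNA against SFPQ and TGF-beta (siSFPQ + TGF-beta), cells given the SFPQ siRNA alone (siSFPQ), cells given a control siRNA and TGF-beta (siCTL + TGF-beta), and cells given the control siRNA alone (siCTL). TGF-beta was used at 2 ng/ml for 24 hours. All groups carried a transfected siRNA, and the cell line is the replicate, so the p-values below measure the spread between lines; the labels name no repeat culture within a line. The sources used here do not give the siRNA sequences or their number.

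SFPQ is a nuclear RNA-binding protein that, with its partner NONO, takes part in splicing, transcription and the building of paraspeckles. TGF-beta binds a pair of receptor kinases that phosphorylate SMAD2 and SMAD3, which enter the nucleus with SMAD4 and bind short DNA elements at target genes. In liver cancer lines the pathway is known for growth arrest and for a shift toward mesenchymal gene expression. The 10 genes form no single pathway: they code for mitochondrial proteins (TMEM160, PLSCR3), DNA-binding regulators (CEBPB, NR2F6, ZNF579), an actin-binding kinase substrate (MARCKSL1), a ubiquitin ligase receptor (ANKRD9), small or little-studied proteins (C4orf48, PRR24) and a long noncoding RNA (LOC100652739).

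Levels are in FPKM, fragments per unit of transcript length, scaled to library size. SFPQ RNA in siSFPQ cells stood at 10.7% to 44.8% of the siCTL level with TGF-beta and at 9.49% to 45.2% without it, least in HLE and most in HepG2 or Huh1. Relative depth, read from the smallest steps of the FPKM values, ran from 0.379 in the siSFPQ + TGF-beta library of Huh7 and 0.406 in the siSFPQ library of HepG2 to 1.74 in the siSFPQ + TGF-beta library of Hep3b. The 8 hepatocyte markers summed to 11.6 to 21.9 FPKM in the libraries labelled Hep3b, with ALB and HNF4A averaging 0.751 and 0.522 FPKM, against 7225 to 10330 FPKM in HepG2. They summed to 10.7 to 12.4 FPKM in SK-HEP1, to 24.2 to 104.8 FPKM in HLE, to 679 to 1070 FPKM in Huh1 and to 12010 to 17650 FPKM in Huh7. In each of Hep3b and SK-HEP1, 5 of the 8 were below 1 FPKM in all libraries. All 5 endothelial markers were below 1 FPKM in every library of all 6 lines. So were the leukocyte genes PTPRC (at most 0.0634 FPKM) and CD3E (at most 0.0727 FPKM). The other immune cell markers listed were not all absent: CD68 averaged 10.7 to 58.4 FPKM across the lines, and CD14 0.345 to 4.91 FPKM. LYZ averaged 445.5 FPKM in Huh7, 473.1 FPKM in HepG2 and 1.77 to 3.06 FPKM in the other lines. Because the libraries labelled Hep3b were low in hepatocyte markers, the calls named below are also given without that line. VIM, a mesenchymal marker, averaged 8.77 FPKM in HepG2 and 672 to 5010 FPKM in the other lines. The other mesenchymal markers listed did not share that order. CDH2 averaged 38.8 FPKM in HepG2, 9.84 FPKM in HLE, 0.453 FPKM in SK-HEP1 and 23.3 to 49.3 FPKM in the other lines. ZEB1 averaged 4.46 FPKM in HepG2 and 3.50 to 9.49 FPKM in the other lines. In bulk RNA, a change in the mix of cells and a change per cell cannot be told apart.

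Promoter windows of 300 bases, from 250 bases before to 50 after the start, are shown for a gene of each response type below. They are given because the DNA letters bound by SMAD proteins are known. The shared direction of the genes in SFPQ-depleted cells is tied to how they were chosen. The sequences are RefSeq's for GRCh38.p14, 5′ to 3′ on the gene's strand. Capitals mark CAGAC and GGCGC, on either strand, 2 short elements that SMAD proteins are known to bind.
TMEM160 promoter, chr19:47048575-47048874, minus strand: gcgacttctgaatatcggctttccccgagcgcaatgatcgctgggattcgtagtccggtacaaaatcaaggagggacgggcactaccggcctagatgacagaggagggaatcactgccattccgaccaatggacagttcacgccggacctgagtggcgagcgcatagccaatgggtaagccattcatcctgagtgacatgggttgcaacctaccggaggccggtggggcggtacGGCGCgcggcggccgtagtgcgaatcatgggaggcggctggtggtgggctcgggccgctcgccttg
C4orf48 promoter, chr4:2041745-2042044, plus strand: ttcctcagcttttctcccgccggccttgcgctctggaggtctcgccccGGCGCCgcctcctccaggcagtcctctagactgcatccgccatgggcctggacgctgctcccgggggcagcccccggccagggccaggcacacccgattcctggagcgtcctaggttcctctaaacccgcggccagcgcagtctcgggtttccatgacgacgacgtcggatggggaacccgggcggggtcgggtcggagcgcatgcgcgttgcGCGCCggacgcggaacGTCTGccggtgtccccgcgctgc
PLSCR3 promoter, chr17:7394476-7394775, minus strand: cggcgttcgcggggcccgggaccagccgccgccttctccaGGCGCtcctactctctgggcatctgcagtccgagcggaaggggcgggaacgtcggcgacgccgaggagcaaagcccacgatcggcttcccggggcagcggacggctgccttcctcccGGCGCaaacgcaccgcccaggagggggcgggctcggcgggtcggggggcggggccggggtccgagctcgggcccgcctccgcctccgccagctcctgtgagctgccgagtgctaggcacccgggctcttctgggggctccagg
MARCKSL1 promoter, chr1:32336184-32336483, minus strand: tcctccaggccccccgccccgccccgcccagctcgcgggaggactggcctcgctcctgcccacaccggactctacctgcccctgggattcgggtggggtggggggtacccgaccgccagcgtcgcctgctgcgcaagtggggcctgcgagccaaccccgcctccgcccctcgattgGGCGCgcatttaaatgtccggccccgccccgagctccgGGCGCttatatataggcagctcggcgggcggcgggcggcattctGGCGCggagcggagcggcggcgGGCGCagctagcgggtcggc
CEBPB promoter, chr20:50190333-50190632, plus strand: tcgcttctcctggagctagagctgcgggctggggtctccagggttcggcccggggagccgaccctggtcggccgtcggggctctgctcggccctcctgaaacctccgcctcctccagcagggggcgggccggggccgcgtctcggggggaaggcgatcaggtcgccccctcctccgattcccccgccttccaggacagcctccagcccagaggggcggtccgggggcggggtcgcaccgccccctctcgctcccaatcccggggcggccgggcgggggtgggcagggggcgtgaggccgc
In these windows, TMEM160 held 1 match, C4orf48 4, PLSCR3 2, MARCKSL1 4 and CEBPB, in the window shown, 0. The other window listed for CEBPB held 2. Over the 11 windows listed for 8 of the 10 genes, CAGAC was in 4 and GGCGC in 7, against 45.3% and 48.6% of the 35116 windows of that length in the table. C4orf48 carries an overlapping GGCGC on both strands at 1 place, counted as 2 matches. The palindrome GTCTAGAC was in 0 of the 11 windows and in 0.202% of all windows, the C/EBP element TTGCGCAA in 0 and 0.151%, and the AP-1 element TGACTCA in 0 and 4.95%. These are letter matches, and binding was not measured. The GC content of the 11 windows was 49.7% to 78.3%, against a median of 58.7% over all windows.

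In SFPQ-depleted cells, TGF-beta went with higher levels of all 10 genes on average: 9 were higher in 6 of 6 lines, and CEBPB in 5 of 6. In control cells it went with lower mean levels of 9 of the 10. TMEM160, PRR24 and ANKRD9 were lower in 6 of 6 control lines, an opposite response. C4orf48, LOC100652739, ZNF579, CEBPB and NR2F6 were lower in 5 of 6. The amounts came close to 0 in single lines for all of these but LOC100652739, whose lower lines ran from -0.78 in Hep3b to -0.19 in Huh1. PLSCR3 had no response in common in control cells, and MARCKSL1 had a weak one in the same direction as in SFPQ-depleted cells. Changes are differences of log2(FPKM + 1) within a line, TGF-beta minus untreated, as mean ± SD over 6 lines, and understate the change of low genes.

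These counts rest on the contrasts that chose the genes, so nothing is read from them against the background, which was as follows. Among all genes tested, 5.61% were higher with TGF-beta in 6 of 6 siSFPQ lines, 3.74% were higher in 6 of 6 control lines, and 5.70% were lower in 6 of 6 control lines. The difference between both changes was positive in 6 of 6 lines for 2.92%, 394 genes, of which 384 are not listed here. It passed an adjusted p of 0.05 (limma, Benjamini-Hochberg over 13492 genes) for 0.252%, 34 genes, 30 of them positive. Of those 30, 20 are not listed here, so neither mark alone sets the list. The smallest single-line difference inside the list was 0.08, for CEBPB in HepG2. Among genes that missed a positive sign in 6 of 6 lines, CITED4, a transcriptional co-activator positive in 5, had a mean of 0.72 and -0.04 in Huh7. The median difference over the 10 genes was 0.76 and over all genes tested -0.03.

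**Figure D1:**
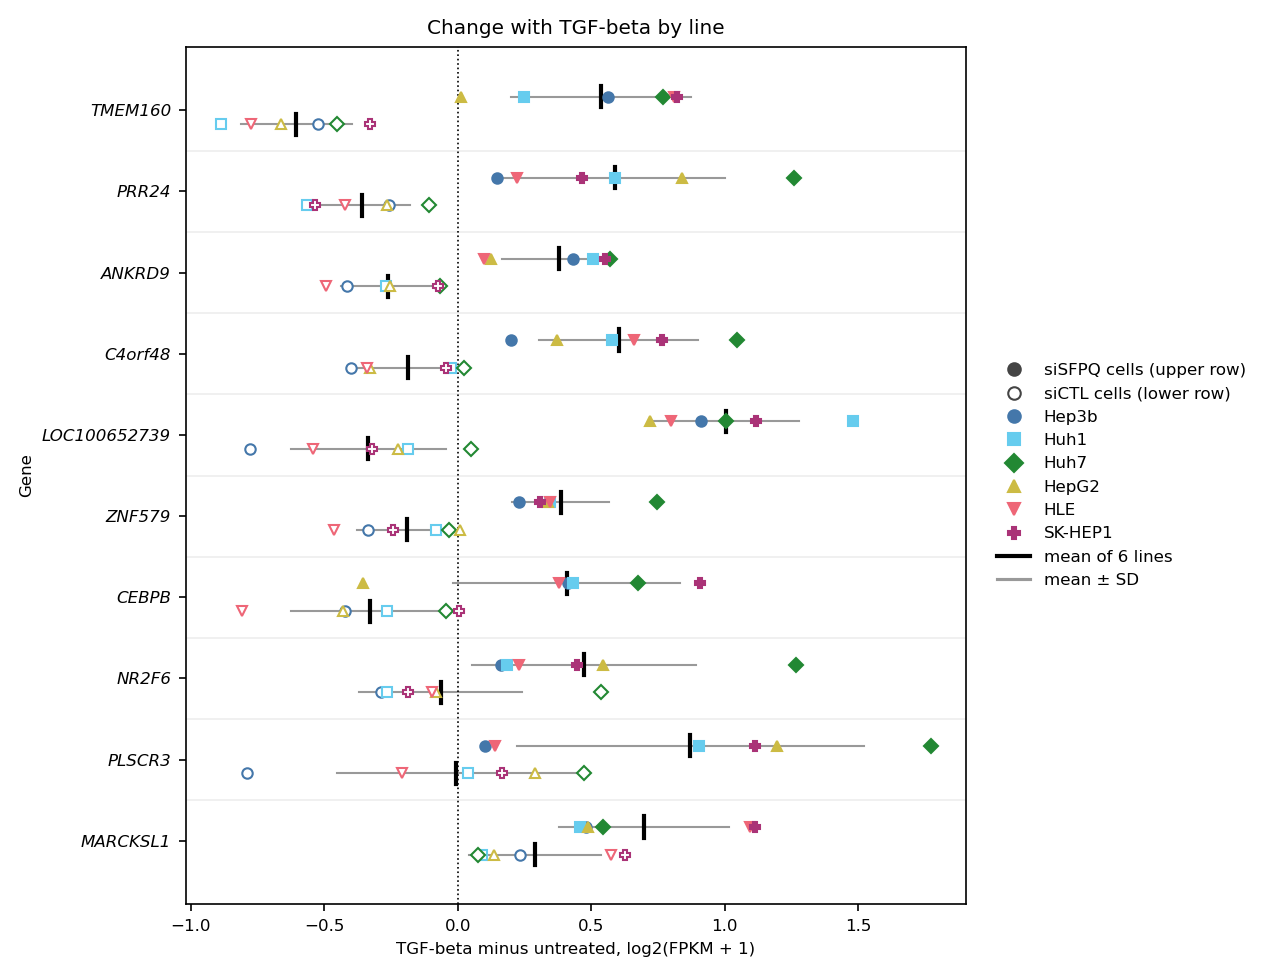
Change with TGF-beta, in log2(FPKM + 1), of each gene in each of 6 lines. For each gene the upper row (filled) shows siSFPQ cells and the lower row (open) siCTL cells, black bars the mean and grey lines the mean ± SD. The siSFPQ points lie right of 0 for 9 genes in 6 of 6 lines, and the siCTL points left of 0 in 6 of 6 lines for TMEM160, PRR24 and ANKRD9.

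TMEM160, a protein of the mitochondrial inner membrane, had the largest mean opposite response of the 10. Its lowest, median and highest levels were 25.8, 75.4 and 110.3 FPKM in siSFPQ + TGF-beta cells and 25.6, 50.1 and 61.9 FPKM in siSFPQ cells, against 24.5, 41.5 and 68.9 FPKM in siCTL + TGF-beta cells and 39.3, 67.4 and 99.6 FPKM in siCTL cells. HepG2 was the lowest line in all 4 groups, and the groups overlapped, so the pattern lies within lines rather than between group ranges. With TGF-beta the change was 0.54 ± 0.34 in siSFPQ cells and -0.60 ± 0.21 in siCTL cells (SD, n = 6). HLE had 90.7 FPKM with TGF-beta and 51.3 without in siSFPQ cells, against 44.9 FPKM with and 77.6 without in siCTL cells. HepG2 differed: 25.8 FPKM with TGF-beta and 25.6 without in siSFPQ cells, a ratio of 1.01, against 24.5 FPKM with and 39.3 without in siCTL cells. The difference of both changes was 1.14 ± 0.29, from 0.67 in HepG2 to 1.58 in HLE.

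PRR24, listed by RefSeq as INAFM1, codes for a small, little-studied membrane protein on a single exon. Levels were low: the lowest, median and highest were 4.01, 10.7 and 13.3 FPKM in siSFPQ + TGF-beta cells and 1.09, 7.14 and 8.73 FPKM in siSFPQ cells, against 2.08, 5.90 and 9.20 FPKM in siCTL + TGF-beta cells and 2.32, 7.95 and 11.2 FPKM in siCTL cells. Huh7 was lowest in every group and had the widest ratio in siSFPQ cells, 4.01 FPKM with TGF-beta, in the shallowest library of the series, and 1.09 without. The TGF-beta change was 0.59 ± 0.41 in siSFPQ cells and -0.36 ± 0.18 in siCTL cells. In Hep3b the siSFPQ cells with TGF-beta (5.33 FPKM) stayed below both siCTL libraries (9.20 FPKM with TGF-beta, 11.2 without), whereas in the other 5 lines they held the highest level of the 4 groups. PRR24 overlaps the end of CCDC9 in the annotation, and reads from both may not be told apart there. CCDC9 had changes of 0.21 in siSFPQ cells and 0.05 in siCTL cells.

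ANKRD9, which recruits the nucleotide-synthesis enzymes IMPDH1 and IMPDH2 to a cullin ubiquitin ligase for degradation, had the smallest mean of the 3 opposite responses. Its lowest, median and highest levels were 12.9, 21.4 and 26.2 FPKM in siSFPQ + TGF-beta cells and 12, 15.7 and 20.3 FPKM in siSFPQ cells, against 13.1, 17.1 and 25.6 FPKM in siCTL + TGF-beta cells and 15.7, 21.2 and 34.5 FPKM in siCTL cells. The siSFPQ change was 0.38 ± 0.21, smallest in HLE (0.10) and HepG2 (0.12). The siCTL change was -0.26 ± 0.17 and came close to 0 in Huh7 (-0.07) and SK-HEP1 (-0.08), a weak response in those lines. In HLE, ANKRD9 stayed below the siCTL level whether TGF-beta was present (12.9 against 16.7 FPKM) or not (12 against 24.0 FPKM). IMPDH1 and IMPDH2, both measured, had differences of -0.18 (adjusted p = 0.346) and -0.10 (adjusted p = 0.506) between the 2 TGF-beta changes (limma). In the annotation ANKRD9 overlaps TECPR2, and reads from both may not be told apart there. TECPR2 had changes of -0.005 in siSFPQ cells and -0.04 in siCTL cells.

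C4orf48, listed by RefSeq as NICOL1, codes for a small secreted protein that in mice acts with NELL2 in the male reproductive tract. The lowest, median and highest levels were 28.8, 101.4 and 191.5 FPKM in siSFPQ + TGF-beta cells and 22.1, 69.7 and 112.2 FPKM in siSFPQ cells, against 23.7, 64.5 and 92.1 FPKM in siCTL + TGF-beta cells and 30.0, 72.9 and 91.3 FPKM in siCTL cells. HepG2 was lowest in all 4 groups, and HLE, Huh7 and SK-HEP1 set the high end in siSFPQ + TGF-beta cells, above every siCTL library with or without TGF-beta. The siSFPQ change was 0.60 ± 0.30. The siCTL change, -0.19 ± 0.19, was near 0 in Huh1 (-0.03), Huh7 (0.02) and SK-HEP1 (-0.04) and negative in Hep3b (-0.40), HLE (-0.34) and HepG2 (-0.33). The control response was thus near absent in 3 lines and opposite in 3.

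LOC100652739, the long noncoding RNA that RefSeq lists as RAET1E-AS1, had the widest difference between both TGF-beta changes, 1.34 ± 0.33. Its lowest, median and highest levels were 5.84, 17.9 and 52.8 FPKM in siSFPQ + TGF-beta cells and 2.93, 8.80 and 18.3 FPKM in siSFPQ cells, against 4.31, 12.9 and 22.2 FPKM in siCTL + TGF-beta cells and 4.13, 15.8 and 33.5 FPKM in siCTL cells. Within siSFPQ cells each line had a higher level with TGF-beta, by a ratio of 1.73 in HepG2 to 2.89 in Huh1, a change of 1.01 ± 0.27. In siCTL cells the change was -0.33 ± 0.29, from -0.78 in Hep3b to 0.05 in Huh7. Without TGF-beta, SFPQ depletion went with a lower level in 6 of 6 lines (-0.77 ± 0.52), whereas with TGF-beta siSFPQ cells had the higher level in Hep3b, Huh1, Huh7, HLE and SK-HEP1, and 14.15 FPKM against 14.18 FPKM in siCTL cells in HepG2. The gene overlaps LRP11 and RAET1E, the second on the opposite strand by its name, and the use of strand in the authors' counting is not given in the sources used here. LRP11 had a difference of 0.26 (adjusted p = 0.121 by limma, positive in 6 of 6 lines) and RAET1E of 0.03 (adjusted p = 0.943).

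ZNF579, a zinc-finger protein of the DNA-binding C2H2 class, had a lowest, median and highest level of 13.9, 24.1 and 37.6 FPKM in siSFPQ + TGF-beta cells and 10.5, 18.8 and 29.4 FPKM in siSFPQ cells, against 10.3, 15.3 and 16.7 FPKM in siCTL + TGF-beta cells and 10.6, 17.0 and 21.4 FPKM in siCTL cells. HLE and SK-HEP1 were the highest lines of both siSFPQ groups, and control levels lay in a narrow band. The siSFPQ change was 0.39 ± 0.18, between 0.23 and 0.35 in 5 lines and 0.75 in Huh7. The siCTL change was -0.19 ± 0.19: absent in HepG2 (0.01) and Huh7 (-0.03), weak in Huh1 (-0.08), and opposite in SK-HEP1 (-0.24), Hep3b (-0.34) and HLE (-0.46).

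CEBPB is the leucine-zipper transcription factor C/EBP-beta, which in hepatocytes activates acute-phase genes. Its lowest, median and highest levels were 47.4, 97.5 and 220.7 FPKM in siSFPQ + TGF-beta cells and 29.3, 64.6 and 163.4 FPKM in siSFPQ cells, against 33.8, 58.1 and 140.2 FPKM in siCTL + TGF-beta cells and 34.8, 68.7 and 168.4 FPKM in siCTL cells. Huh7 was the lowest and Huh1 the highest line throughout. The siSFPQ change was 0.41 ± 0.43, with HepG2 as the exception at -0.35 (119.7 FPKM with TGF-beta, 153.3 without). The siCTL change was -0.33 ± 0.30, from -0.81 in HLE to 0.01 in SK-HEP1. HepG2 therefore had a lower level with TGF-beta in both siSFPQ and siCTL cells, by ratios of 0.781 and 0.740, and its difference between both was 0.08, against 0.70 to 1.19 in the other 5 lines.

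NR2F6, an orphan nuclear receptor of the COUP-TF family, had a lowest, median and highest level of 61.7, 89.1 and 261.7 FPKM in siSFPQ + TGF-beta cells and 52.2, 67.4 and 108.1 FPKM in siSFPQ cells, against 33.2, 73.0 and 205.8 FPKM in siCTL + TGF-beta cells and 37.8, 77.6 and 141.6 FPKM in siCTL cells. Huh7 stood apart from the other lines. There TGF-beta went with a higher level in siSFPQ cells (261.7 FPKM with, 108.1 without) and also in siCTL cells (205.8 FPKM with, 141.6 without). In the other 5 lines the siSFPQ change lay between 0.16 and 0.54 and the siCTL change between -0.29 and -0.08, an absent to weakly opposite response. Over 6 lines the changes were 0.47 ± 0.42 in siSFPQ cells and -0.06 ± 0.31 in siCTL cells, the second within its spread of 0.

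PLSCR3, a scramblase that moves the lipid cardiolipin in mitochondria, had no control response shared by the lines. The lowest, median and highest levels were 11.04, 26.8 and 42.6 FPKM in siSFPQ + TGF-beta cells and 4.25, 14.2 and 38.6 FPKM in siSFPQ cells, against 7.998, 14.7 and 25.4 FPKM in siCTL + TGF-beta cells and 6.36, 19.01 and 26.3 FPKM in siCTL cells. In siSFPQ cells the change was 0.87 ± 0.65, small in Hep3b (0.10) and HLE (0.14) and between 0.90 and 1.77 in the other 4 lines. In siCTL cells it was -0.01 ± 0.45, negative in Hep3b (-0.79) and HLE (-0.21), and positive in Huh1 (0.04), SK-HEP1 (0.17), HepG2 (0.29) and Huh7 (0.47). The difference between both changes was 0.88 ± 0.31. PLSCR3 lies within the read-through gene C17orf61-PLSCR3, so its values may share reads with that transcript, whose own changes were 0.09 in siSFPQ and 1.00 in siCTL cells, a difference of -0.92 (adjusted p = 0.169 by limma, positive in 1 of 6 lines).

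MARCKSL1, a protein kinase C substrate that binds actin and calmodulin, was the 1 gene with a positive control response in 6 of 6 lines. Its lowest, median and highest levels were 91.4, 176.2 and 419.0 FPKM in siSFPQ + TGF-beta cells and 42.2, 120.9 and 304.9 FPKM in siSFPQ cells, against 18.6, 124.9 and 288.8 FPKM in siCTL + TGF-beta cells and 11.7, 110.3 and 271.3 FPKM in siCTL cells. The siSFPQ change was 0.70 ± 0.32 and the siCTL change 0.29 ± 0.25, so the control response was weaker in the same direction. HLE and SK-HEP1 had the largest siSFPQ changes (1.10 and 1.11) and the largest siCTL changes (0.57 and 0.63), and in the other 4 lines the siCTL change was weak, from 0.08 in Huh7 to 0.23 in Hep3b. SK-HEP1 had 166.3 FPKM with TGF-beta and 76.2 without in siSFPQ cells, against 18.6 FPKM with and 11.7 without in siCTL cells. The difference between both changes, 0.41 ± 0.10, was the smallest of the 10 and had the least spread.

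**Figure D2:**
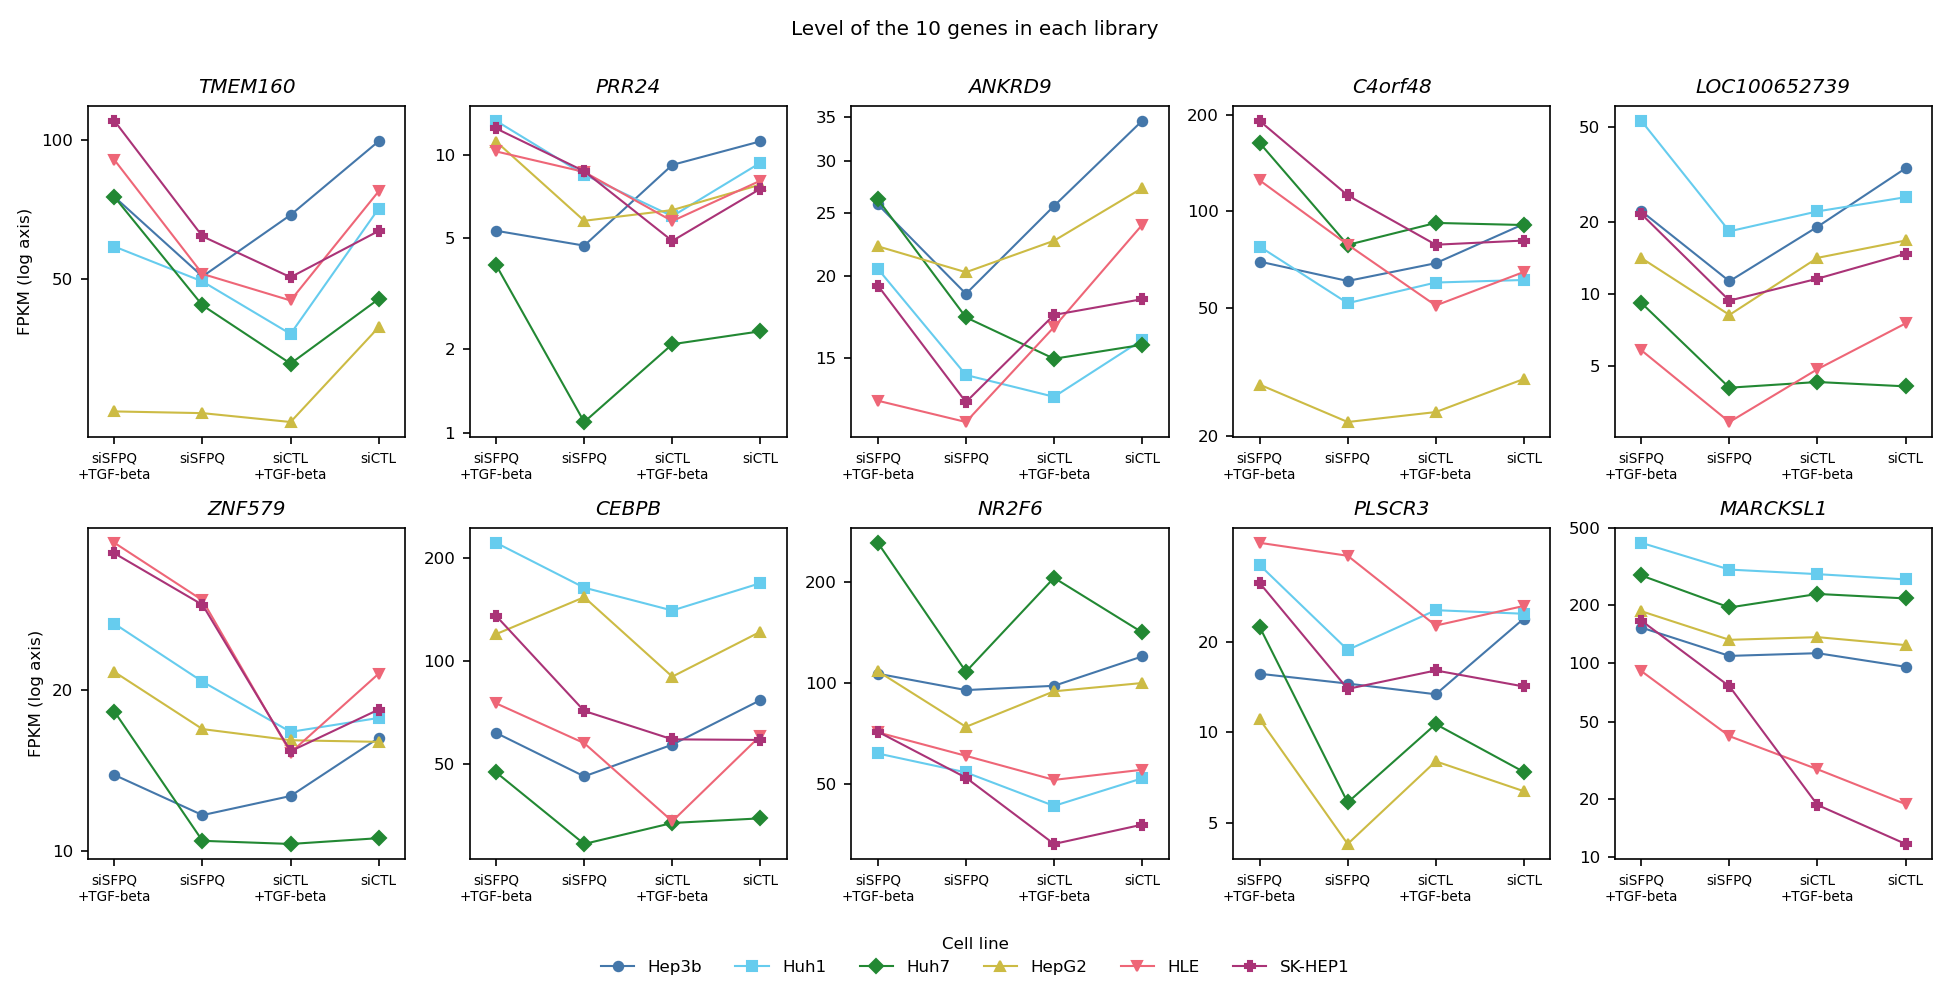
Level of each gene in FPKM, on a log axis, in the 4 groups, with 1 point per library and lines that join the 4 libraries of a cell line. SK-HEP1 and Huh7 have their highest level in siSFPQ + TGF-beta cells for all 10 genes, and Hep3b has it there for MARCKSL1 alone.

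Taken line by line, siSFPQ + TGF-beta cells had the highest of the 4 levels in 43 of 60 pairs of a gene and a line. It was highest for 10 of 10 genes in Huh7 and SK-HEP1, 9 in Huh1, 8 in HLE, 5 in HepG2 and 1 in Hep3b. Untreated siCTL cells were highest in 16 pairs, and untreated siSFPQ cells in 1, CEBPB in HepG2. The lowest level was in untreated siSFPQ cells in 29 pairs, in siCTL + TGF-beta cells in 24 and in untreated siCTL cells in 7. Hep3b had untreated siSFPQ cells lowest for 8 of 10 genes. A positive difference in every line, which chose the genes, favours siSFPQ + TGF-beta or untreated siCTL cells as the highest group. It likewise favours the other groups as the lowest. The share over all genes is not given here, and nothing is read from these counts. The median difference between both TGF-beta changes over the 10 genes was 0.72 in Hep3b, 0.74 in Huh1, 0.87 in Huh7, 0.65 in HepG2, 0.73 in HLE and 0.86 in SK-HEP1. It was made up differently in each line: the median siSFPQ change was 0.89 in Huh7 and 0.79 in SK-HEP1 beside siCTL changes of -0.01 and -0.13, whereas it was 0.32 in Hep3b and 0.36 in HLE beside siCTL changes of -0.41 and -0.44. Huh1 (0.48 and -0.23) and HepG2 (0.43 and -0.24) lay between. SFPQ itself was depleted least in HepG2 and Huh1, with mean log2 changes of -1.15 and -1.21, and most in HLE, with -3.26.

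The same values read as the effect of SFPQ depletion gave 2 unlike pictures. With TGF-beta, depletion went with a higher mean level of all 10 genes, and with a higher level in 6 of 6 lines for 7 of them: TMEM160 (0.68 ± 0.49), C4orf48 (0.67 ± 0.54), ZNF579 (0.72 ± 0.44), CEBPB (0.66 ± 0.42), NR2F6 (0.45 ± 0.35), PLSCR3 (0.66 ± 0.33) and MARCKSL1 (1.08 ± 1.10). Among all genes tested 8.40% were higher in 6 of 6 lines. Without TGF-beta, the mean was below 0 for 8 genes, and TMEM160 (-0.46 ± 0.36) and LOC100652739 (-0.77 ± 0.52) were lower in 6 of 6 lines, as were 16.3% of all genes. ZNF579 (0.15 ± 0.37) and MARCKSL1 (0.67 ± 1.04) were the exceptions. These contrasts share their libraries with the difference that chose the genes, and nothing is read from the counts. MARCKSL1 was spread most: untreated SK-HEP1 had 76.2 FPKM in siSFPQ and 11.7 FPKM in siCTL cells, whereas untreated Huh7 had 194.4 and 216.5 FPKM.

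**Figure D3:**
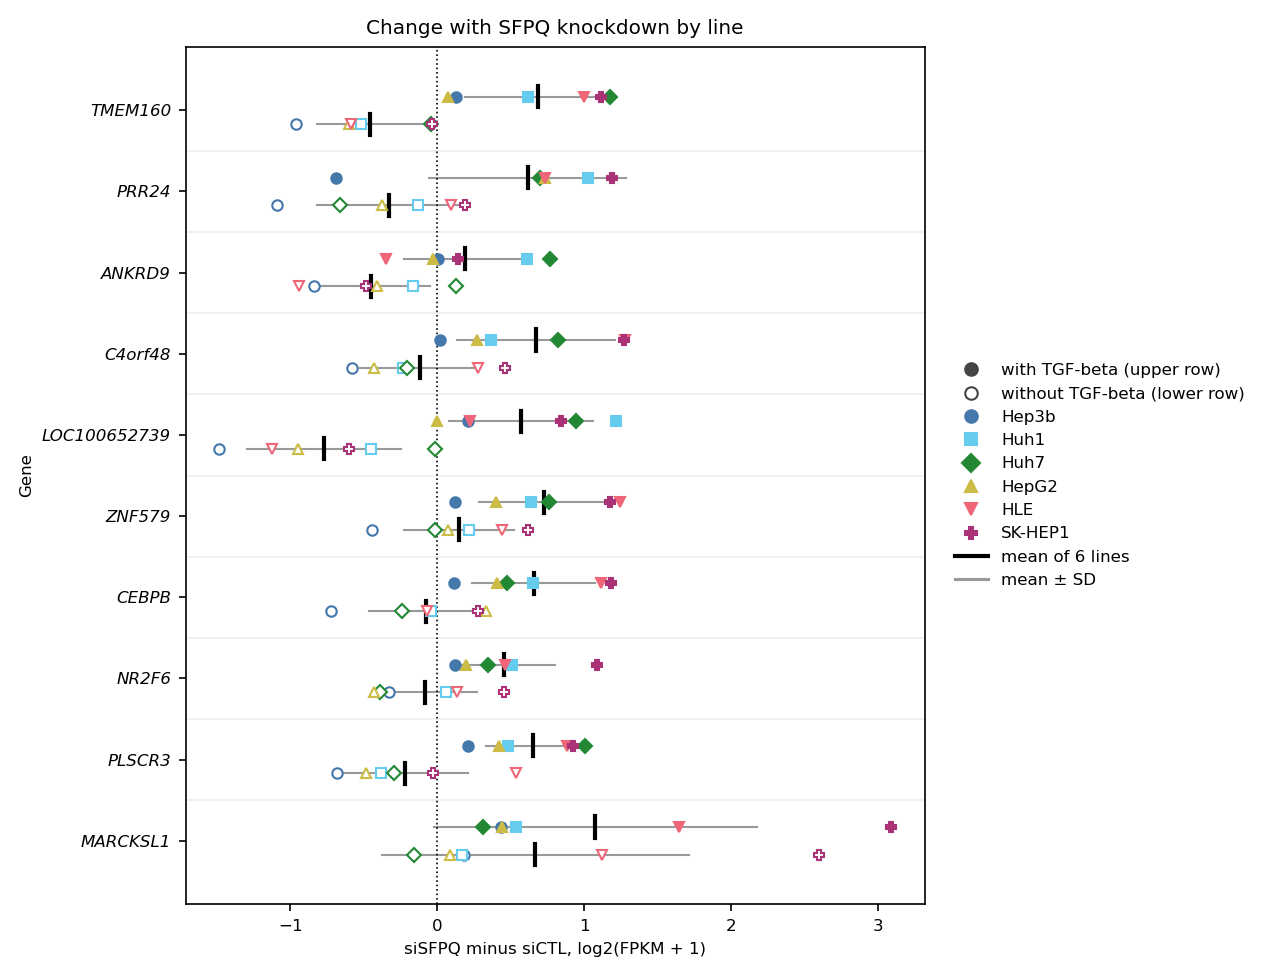
Change with SFPQ knockdown, in log2(FPKM + 1), of each gene in each of 6 lines, with TGF-beta in the upper row (filled) and without it in the lower row (open). Black bars are means and grey lines the mean ± SD. With TGF-beta the points of 7 genes lie right of 0 in 6 of 6 lines, and HLE and SK-HEP1 lie apart for MARCKSL1.

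The choice of genes did not use 2 averages directly, and these were tested across all genes. One is the TGF-beta change averaged over siSFPQ and siCTL cells, the other the knockdown change averaged over cells with and without TGF-beta. Both share their libraries with the difference that chose the genes, and are independent of it only where those libraries have equal error. Relative depth ran from 0.379 to 1.74, so the values of the 10 genes may not be free of that choice. For the TGF-beta average, 0 of 10 passed an adjusted p of 0.05 by limma, against 1.29% of all genes tested, and 4 had an unadjusted p under 0.05, against 25.1% of all genes. MARCKSL1 came closest, at 0.49 (SE 0.10, adjusted p = 0.0555, higher in 6 of 6 lines). LOC100652739 followed with 0.34 (SE 0.08, adjusted p = 0.0759, higher in 6 of 6 lines), and C4orf48 (0.21, adjusted p = 0.168, higher in 5 of 6) and PLSCR3 (0.43, adjusted p = 0.183, higher in 4 of 6) were the others. For TMEM160 the average was -0.03 (SE 0.08, adjusted p = 0.821) and for CEBPB 0.04 (SE 0.11, adjusted p = 0.831). The median average change over the 10 genes was 0.16, against -0.04 over all genes tested. Without Hep3b, again 0 of 10 passed, against 143 of 13165 genes tested. MARCKSL1 then had 0.52 (adjusted p = 0.0669 by limma) and LOC100652739 0.39 (adjusted p = 0.0671).

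For the average knockdown change, 1 of 10 genes passed, against 25.6% of all genes tested in either direction and 7.52% that were higher. ZNF579 rose by 0.44 (SE 0.14, adjusted p = 0.0439 by limma, higher in 5 of 6 lines), with Hep3b as the exception at -0.16. That call was lost without Huh1, Huh7, HepG2, HLE or SK-HEP1, where the adjusted p was 0.0610 to 0.111, and was kept without Hep3b, where the change was 0.56 (adjusted p = 0.0197). It was also lost with no filter on low values (adjusted p = 0.0889), with short RNA rows kept (0.0532), without both Huh7 and HepG2 (0.109) and with no replicate block for the line (0.271). MARCKSL1 had 0.87 (SE 0.33, adjusted p = 0.0798, higher in 6 of 6 lines), carried by 2.85 in SK-HEP1 and 1.39 in HLE against 0.08 to 0.35 in the other 4 lines, and 0.99 (adjusted p = 0.0884) without Hep3b. CEBPB had 0.29 (SE 0.12, adjusted p = 0.109, higher in 5 of 6 lines). Without Hep3b it had 0.41 (adjusted p = 0.0275 by limma) and passed, as ZNF579 did. Over all genes 25.6% passed with 6 lines, and nothing is read from the number of these calls. The median over the 10 genes was 0.20 and over all genes tested -0.08. Scaling all libraries to a common median log ratio moved the median of all genes to 0.03 and turned the split of calls: 1759 of 3244 were higher under that scaling and 1014 of 3455 as deposited. For the TGF-beta average 108 of 132 calls were higher under it and 100 of 174 as deposited. The ZNF579 value was then 0.55 (adjusted p = 0.0305).

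**Figure D4:**
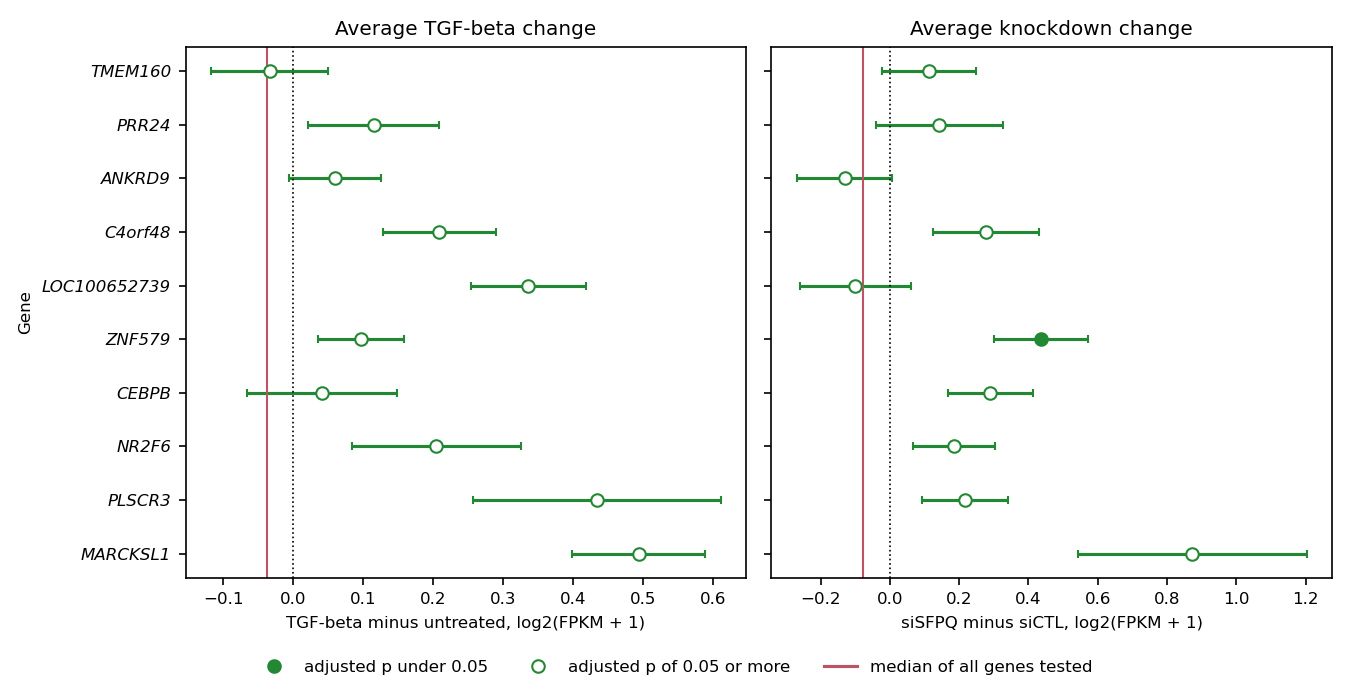
Average TGF-beta change (left) and average knockdown change (right) of each gene in log2(FPKM + 1), with bars of 1 SE from limma over 6 lines and the median of all genes tested as a red line. Filled points passed an adjusted p of 0.05: ZNF579 in the right panel, at 0.44, and none in the left.

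In sequence the 10 genes had in common a high GC content of the transcript. It was 58.7% (ANKRD9) to 73.2% (C4orf48) in the longest GENCODE transcript, with a median of 67.9%, against 48.7% over the 13188 genes tested that had a match. A content of 60% or more was found in 8 of the 10 and in 15.3% of those genes. The transcripts were short, with a median length of 1827.5 bases against 3540 bases for all, from 477 bases in C4orf48 to 6727 in ANKRD9. PRR24 and CEBPB are single-exon genes, as are 4.25% of the genes tested. GC content moved with the choosing measure over all genes too: the share with a positive difference in 6 of 6 lines was 8.78% among genes of 65% GC or more and 1.08% among those below 40%. The median difference was 0.04 and -0.03 in these classes. The GC trend of each library was also removed before the changes were formed. The difference was then 1.07 for TMEM160, against 1.14 as deposited, and 0.71 against 0.79 for C4orf48. For NR2F6 it was 0.47 against 0.54 and for CEBPB 0.71 against 0.74. It was 0.66 against 0.64 for ANKRD9 and 0.42 against 0.41 for MARCKSL1, and 25 genes in all were called, against 34. Values of PRR24, LOC100652739, ZNF579 and PLSCR3 under that setting are not given here. Of the 20 other genes called positive, 11 had 60% GC or more.

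**Figure D5:**
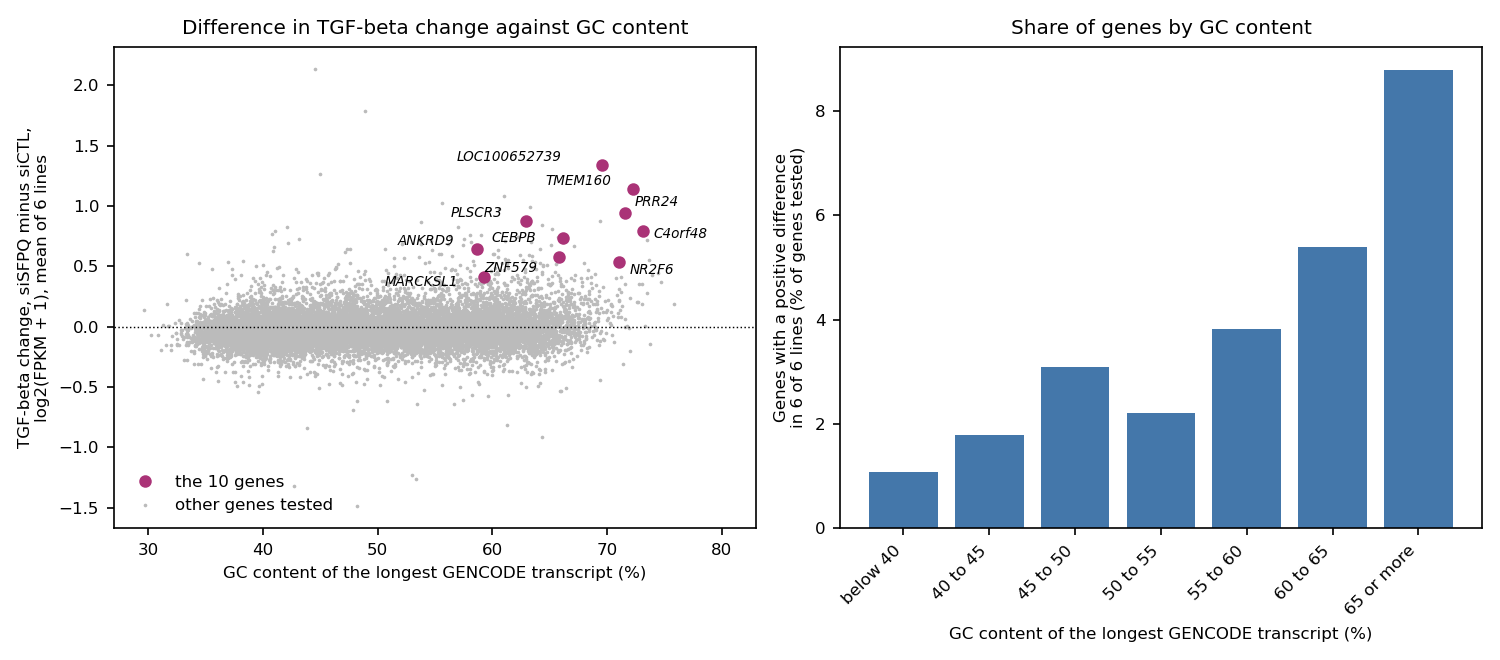
Left, difference between the TGF-beta changes (siSFPQ minus siCTL, log2 scale, mean of 6 lines) of each gene against the GC content of its transcript in percent, with the 10 genes as large points. Right, percent of genes in each GC class with a positive difference in 6 of 6 lines. The 10 genes lie between 58.7% and 73.2% GC, and the share is 8.78% in the highest class.

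TMEM160, PRR24, ZNF579 and NR2F6 are on chromosome 19, which holds 7.63% of the genes tested that have a chromosome in RefSeq, and the others are on chromosomes 1, 4, 6, 14, 17 and 20. TMEM160 and PRR24 lie in the same part of chromosome 19, with other measured genes between them. Of the nearest measured genes on both sides, 20 in all, 0 passed for the difference by limma (lowest adjusted p = 0.121). An unadjusted p under 0.05 was found for 5 of the 20, against 12.5% of all genes, 11 were positive, against 40.6%, and 3 were positive in 6 of 6 lines, against 2.92%: ZC3H4 beside TMEM160 (0.04), LRP11 (0.26) and TMEM189 beside CEBPB (0.31, adjusted p = 0.229). Their median was 0.03. Without Hep3b, 0 of the 20 passed. HDAC1, next to MARCKSL1, had 0.10 (adjusted p = 0.567).

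Lists of relatives and known targets held few calls for the difference in TGF-beta change. Of 4 other C/EBP family genes 0 passed by limma (0 with an unadjusted p under 0.05), and 1 was positive. Over all genes tested these shares were 0.252%, 12.5% and 40.6%. CEBPD, an acute-phase regulator, fell by 0.63 with TGF-beta on average (adjusted p = 0.0456 by limma; 0.0530 without Hep3b, and up to 0.113 without any 1 of the 6 lines, so that each removal ended the call), with -0.56 in siSFPQ and -0.70 in siCTL cells, a difference of 0.13 (adjusted p = 0.582), where CEBPB had 0.41 and -0.33. CEBPA, the factor of differentiated hepatocytes, had -0.23 and -0.20. Of 16 acute-phase genes, among them C/EBP targets, 0 passed by limma for the difference, for the TGF-beta average or for the knockdown average, with 1, 4 and 0 at an unadjusted p under 0.05. Over all genes tested 12.5%, 25.1% and 40.4% had one. Their median difference was -0.02, against -0.03 over all genes tested. Hepatocyte markers were low in Hep3b, HLE and SK-HEP1, and log2(FPKM + 1) understates changes of low genes. The levels of the acute-phase genes by line are not given here, so these counts cannot show whether C/EBP targets followed CEBPB. NR2F1 and NR2F2, the COUP-TF relatives of NR2F6, had differences of -0.13 and -0.03, and NR2F2 fell by 0.34 with knockdown (adjusted p = 0.0300). PLSCR1 fell by 0.45 with knockdown (adjusted p = 0.0217), and its difference in TGF-beta change was 0.07 (adjusted p = 0.812). MARCKS, the nearest relative of MARCKSL1, rose by 0.39 with knockdown (adjusted p = 0.0375), and its difference was 0.20, positive in 6 of 6 lines (adjusted p = 0.289). TAT, the 1 measured gluconeogenic C/EBP target of 3 listed, had a difference of -0.02 (adjusted p = 0.962). Without Hep3b the adjusted p for knockdown was 0.0493 for NR2F2, 0.0252 for PLSCR1 and 0.0221 for MARCKS. The call was lost without HepG2, HLE or SK-HEP1 for NR2F2 (adjusted p up to 0.0762), without HepG2 for PLSCR1 (0.0534), and without Huh1, HepG2, HLE or SK-HEP1 for MARCKS (up to 0.0997).

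Among 15 single-exon regulator genes, a class that CEBPB shares, 1 passed for the difference, against 0.252% of all genes tested: H1FX, a linker histone, at 0.41 (SE 0.06, adjusted p = 0.0276 by limma, positive in 6 of 6 lines), with changes of 0.21 in siSFPQ and -0.20 in siCTL cells. That call was lost without Hep3b (0.40, adjusted p = 0.109), Huh1, HLE or SK-HEP1 (up to 0.129). In this list, which holds CEBPA and CEBPD too, 12 genes were positive, against 40.6% of all genes, with a median of 0.23, against -0.03, and the list was chosen with earlier results of these data known. A further 2 passed for the average knockdown change, against 25.6% of all genes, RHOB at 1.37 (adjusted p = 0.00704) and IER5L at 0.50 (adjusted p = 0.0434). Without Hep3b the adjusted p was 0.00947 for RHOB and 0.0146 for IER5L. RHOB kept its call without any 1 line, and IER5L lost it without each of the other 5 (up to 0.106). FOXQ1 (0.41, adjusted p = 0.0814), RHOB (0.36, adjusted p = 0.121), SOX4 (0.47, adjusted p = 0.333) and IER5 (0.24, adjusted p = 0.233) were positive in 6 of 6 lines. The general TGF-beta response was present in both siSFPQ and siCTL cells. TAGLN, a smooth muscle actin-binding protein, rose by 1.38 on average (adjusted p = 0.0293 by limma), with 1.36 in siSFPQ and 1.39 in siCTL cells, and SKIL, a SMAD inhibitor, by 1.35 (adjusted p = 0.0491). The TAGLN call held without Hep3b (adjusted p = 0.0428) and was lost without Huh1, HepG2 or HLE (up to 0.0958), and that of SKIL was lost without Hep3b (0.0504) and each other line (up to 0.127). SKIL also passed for the difference, at 0.60 (adjusted p = 0.0333, positive in 6 of 6 lines), with 1.65 in siSFPQ and 1.05 in siCTL cells, a call lost without Hep3b (0.53, adjusted p = 0.0984), Huh1, HepG2, HLE or SK-HEP1 (up to 0.129). SMAD7 (0.28, adjusted p = 0.249) and PMEPA1 (0.87, adjusted p = 0.114) were positive in 6 of 6 lines without passing. Of 8 hepatocyte, 3 mesenchymal and 3 immune cell markers tested, 0 passed for the difference by limma, against 0.252% of all genes tested. At an unadjusted p under 0.05 there were 0, 1 and 1, against 12.5% of all genes.

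Across the 24 libraries, with line means removed, each of the 10 genes was set against the mean of the other 9. C4orf48 was most like them (r = 0.928) and ANKRD9 least (r = 0.404), after MARCKSL1 (r = 0.562) and LOC100652739 (r = 0.699). The other 6 lay between 0.794 and 0.852. The 6 unlisted genes most like the mean profile of the 10 were PCSK1N (r = 0.803), MFSD12 (r = 0.792), ZNF385A (r = 0.785), C2orf82 (r = 0.783), PRSS8 (r = 0.783) and C22orf23 (r = 0.778). The 10 genes were chosen on a difference formed from these same libraries, so likeness among them is in part built in. That also holds for unlisted genes picked for their likeness, and no r for genes at large is given here. Values of 1 library share its depth and its scaling, and these correlations describe likeness only. PRSS8, a membrane-anchored serine protease, had TGF-beta changes of 1.15 in siSFPQ and 0.29 in siCTL cells. C2orf82 had 0.74 and -0.10.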

How the data were processed

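The RNA of 24 libraries was measured, 6 cell lines in 4 groups. Although its name speaks of raw counts, the deposited table holds FPKM, which the authors made with TopHat2 2.1.1 and Cufflinks 2.2.1 on hg19 (GRCh37), per the submitters' processing notes. Annotation and strand settings: not given in the sources used here. Read depth is unknown, and relative depth was estimated from the smallest FPKM steps. Short RNA rows (1628 of 23284) were dropped, 2 columns that match none of the labels were not used, and values below 1e-06 were set to 0. Genes reaching 1 FPKM in at least 6 libraries, 13492 in all, entered the test. Values were taken as log2(FPKM + 1), changes were formed within each line, and limma 3.58.1 (R 4.3.3, trended and robust shrinkage) tested their mean over 6 lines, with 5 residual degrees of freedom, and p-values were adjusted by Benjamini-Hochberg over every gene tested. Libraries of 1 line share their cells and deviated together (r = 0.874 to 0.978, against -0.514 to 0.410 between other lines and groups). The genes and gene lists were chosen with earlier results of these data known. Neighbours are the nearest measured gene on both sides; the 6 most alike genes went by Pearson's r. GC content and length come from GENCODE, symbols, positions and promoters from RefSeq (GRCh38.p14), with 8 of the 10 genes matched in the promoter table (all but ANKRD9 and NR2F6). The fit was tested on simulated data. Alternatives changed the pseudocount, filter, scaling, GC correction, lines, block and shrinkage.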

Additional observations from a re-analysis of the deposited data

Results flagged for a closer look

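In each group of 6 lines the gap of the outermost line to its neighbour was compared with the range of the group. Of 110 such groups, 8 had a line beyond the limit, where chance gives about 1 in 20. Huh7 was that line in 6 of them: the TGF-beta change of ZNF579 in siSFPQ cells (0.75), of NR2F6 in siSFPQ cells (1.27) and in siCTL cells (0.54), the average TGF-beta change of NR2F6 (0.90), and the levels of PRR24 in siSFPQ cells (1.09 FPKM) and in siCTL cells (2.32 FPKM). The siSFPQ + TGF-beta library of Huh7 had a relative depth of 0.379, and the part of depth in these values was not tested. The PRR24 change with knockdown in the presence of TGF-beta was -0.69 in Hep3b. The level of C4orf48 in siCTL cells was 30.0 FPKM in HepG2.

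For 3 genes every siSFPQ line moved up and every siCTL line down with TGF-beta: TMEM160, with a difference of 1.14, PRR24, with 0.95, and ANKRD9, with 0.64. The difference was not tested here, since it chose the genes.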

How the results depend on the processing

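The difference in TGF-beta change chose the genes, so its sign under other settings shows nothing about stability; its mean ranged from 0.846 to 1.23 times its value over settings that can move it. The sign of the siCTL change turned in 5 of 140, for PLSCR3 or NR2F6. For the average knockdown change, the count of the 10 genes that passed was 0 to 2 when lines were left out one at a time. It was 0 with no filter on low values, 0 with short RNA rows kept, 0 without Huh7 and HepG2, and 0 with no replicate block, against 1 with the block. The average TGF-beta change of TMEM160 was 0.0002 with median scaling and -0.0900 to 0.0244 with lines left out. That of PRR24 was -0.0441 without Huh7 and HepG2, and that of CEBPB -0.0426 to 0.1274 with lines left out. The average knockdown change of LOC100652739 was 0.0110 with median scaling and -0.2122 to 0.0084 with lines left out. Over all genes, the calls for the difference were 34, against 13 with a pseudocount of 0.1, 4 with no filter, 18 with short RNA rows, 15 with no trend or robust shrinkage, 0 with no replicate block and 8 to 29 with a line left out (22 without HepG2, 13 without Hep3b, 12 without HLE, 11 without SK-HEP1 and 8 without Huh1). Calls for the average TGF-beta change were 174, against 9 with no filter, 56 with short RNA rows, 71 with no trend or robust shrinkage, 3 without Huh7 and HepG2, 0 with no replicate block and 0 to 143 with a line left out (19 without Huh7, 16 without SK-HEP1, 7 without HepG2, and 0 without HLE or Huh1). Calls for the average knockdown change were 3455, against 2210 with no filter, 1009 without Huh7 and HepG2, 442 with no replicate block and 2107 to 2787 with a line left out (2273 without Huh7, 2174 without HLE, 2107 without SK-HEP1). The cause of these shifts was not tested. Depth is unknown, so low levels such as those of PRR24 carry an error that these values do not show.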
